A study of Mus musculus with 8 samples.

Results

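Antibody transcripts were followed through 10 genes in 8 ligated mouse livers: the kappa light chain constant gene Igkc, the lambda light chain genes Iglc1, Iglc2, Iglc3 and Iglj1, the heavy chain constant genes Ighm, Igha, Ighg2b and Ighg3, and Jchain. They were chosen by gene name, and each matched 1 of the 53816 gene IDs in the deposited tables. Of the 8 livers, 4 came from mice labelled as overexpressing Myc in liver sinusoidal endothelial cells and 4 from wild-type mice. All 8 mice had undergone ligation of the bile duct, and each library is RNA of whole liver tissue. The promoter that drives Myc, the age, sex and strain of the mice and the time after surgery are not stated in the labels or tables used here.

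Antibodies are made by B cells and, in far larger amounts per cell, by plasma cells, which end B cell development. Each antibody joins a pair of heavy chains, whose constant gene sets the class (Ighm for IgM, Igha for IgA, the Ighg genes for the IgG subclasses), to a pair of kappa or lambda light chains. A variable region in front of each constant region is assembled in every B cell by recombination of variable and joining segments. The joining chain, encoded by Jchain, links IgA into dimers and IgM into pentamers. In the liver the receptor encoded by Pigr carries such polymeric IgA across bile duct cells, and in rodents also across hepatocytes, into bile, the flow of which is blocked by the ligation. In bulk tissue, fewer cells of a type and less RNA per cell cannot be told apart.

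Sequence decides how well these genes can be told apart in reads, and the lambda genes carried the difference with the smallest p, so their coding starts are shown. The first 120 bases of the coding part of the 3 lambda constant genes follow, from GENCODE M21 transcripts on GRCm38, each read on the minus strand from chr16:19061952-19062071 (Iglc1), chr16:19198733-19198852 (Iglc2) and chr16:19065562-19065681 (Iglc3). Capitals mark the positions at which the 3 genes are not all alike.
Iglc1: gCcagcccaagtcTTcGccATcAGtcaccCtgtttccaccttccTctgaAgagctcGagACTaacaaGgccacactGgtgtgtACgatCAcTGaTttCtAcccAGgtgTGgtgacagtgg
Iglc2: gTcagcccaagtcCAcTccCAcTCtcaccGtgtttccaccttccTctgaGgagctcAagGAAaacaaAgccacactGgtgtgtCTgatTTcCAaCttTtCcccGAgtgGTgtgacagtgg
Iglc3: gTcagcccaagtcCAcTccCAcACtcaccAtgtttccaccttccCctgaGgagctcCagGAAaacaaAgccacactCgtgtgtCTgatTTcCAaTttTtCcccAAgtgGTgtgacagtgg
Iglc2 and Iglc3 differed at 7 of these bases and were 96.5% identical over the whole coding part, so that reads can be split between them. Iglc1 was 74.8% identical to Iglc2 and 75.7% identical to Iglc3.

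The joining segments are far shorter. Iglj1 is shown in full beside Iglj2 and Iglj3, since the libraries differed in their levels of Iglj1 and Iglj3. They lie on the minus strand at chr16:19063225-19063262 (Iglj1), chr16:19200198-19200235 (Iglj2) and chr16:19067041-19067078 (Iglj3), with capitals again at positions that are not alike in all 3.
Iglj1: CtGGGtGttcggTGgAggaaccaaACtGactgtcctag
Iglj2: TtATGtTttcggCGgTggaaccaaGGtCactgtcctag
Iglj3: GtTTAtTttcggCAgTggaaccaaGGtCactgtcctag
Iglj1 differed from Iglj2 at 9 and from Iglj3 at 11 of the 38 bases. All 38 bases of Iglj2 lie in an exon of Iglc2 on the same strand, so their reads may not be separable. Iglj1 lies 1153 bases in front of Iglc1, and Iglj3 lies in front of Iglc3 in the same orientation.

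Levels are in TPM, an abundance scaled for transcript length and for the total of each library. The ratio of coverage to FPKM put the aligned sequence at 5.29 to 6.74 Gb a library. Nothing in the labels says more of the replicates than their numbers, so that p-values measure the spread between these livers as labelled. Myc, the gene named in the labels, stood at 339, 356, 25.6 and 249 TPM in the Myc-labelled replicates 1 to 4, against 272, 207, 554 and 89.2 TPM in the controls. It did not separate the groups, and all directions below rest on the labels. Myc-labelled replicate 3 stood apart from the other libraries, with the lowest mean correlation to them over the genes tested (0.948, against 0.957 to 0.969 in the others), and values without it are given where they moved the printed log2 difference of a tested gene by more than 1.5 times or turned its sign. Liver identity held in every library: albumin transcripts ranged from 42693 to 73217 TPM in the Myc-labelled livers and from 41497 to 95736 TPM in the controls, and the sinusoidal endothelial receptor gene Stab2 from 7.30 to 11.9 TPM in the Myc-labelled livers and from 11.1 to 17.0 TPM in the controls.

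Antibody transcripts were clearest in Igkc, while B cell markers and several other constant genes were faint. Igkc was the most abundant of the 10 genes in 8 of 8 libraries, while 0 of 15 B cell markers reached a mean of 1 TPM. The markers summed to 1.59 to 4.86 TPM per Myc-labelled liver and 1.90 to 5.72 TPM per control liver. The highest single value among them was 1.99 TPM for Cd79b, a signalling subunit of the B cell receptor, in Myc-labelled replicate 2. Ms4a1, which encodes the surface antigen CD20 of B cells, stood at 0, 0.0285, 0 and 0.0577 TPM in the Myc-labelled livers and at 0.0313, 0, 0 and 0.0990 TPM in the controls. T cell markers were as low, with a highest single value of 1.94 TPM (Lck) and sums of 1.39 to 8.19 TPM in the Myc-labelled livers and 1.13 to 5.93 TPM in the controls.

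The kappa light chain gene Igkc (chromosome 6, 70726435 to 70726966, plus strand, a single exon with its 3′ UTR) differed widely between mice within each group. It stood at 10.7, 38.7, 2.84 and 36.5 TPM in Myc-labelled replicates 1 to 4, and at 15.1, 64.7, 15.7 and 19.8 TPM in control replicates 1 to 4. The lowest library was Myc-labelled replicate 3 and the highest control replicate 2, which differed 22.8-fold, and the groups overlapped. Igkc averaged 22.2 ± 18.1 TPM in Myc-labelled livers and 28.8 ± 24.0 TPM in control livers (SD, n = 4 each). Myc-labelled minus control, log2(TPM + 1) differed by -0.62 ± 0.85 (SE; 95% interval -2.60 to 1.37; limma adjusted p = 0.9998). Without Myc-labelled replicate 3 it was 0.07, and without control replicate 2 it was -0.15. These values rest on 5014 to 105451 aligned bases over the 532 bases of the transcript. The noncoding gene Gm30211, which spans Igkc on the same strand without sharing exon bases, was listed at 0 in all 8 libraries.

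**Figure D1:**
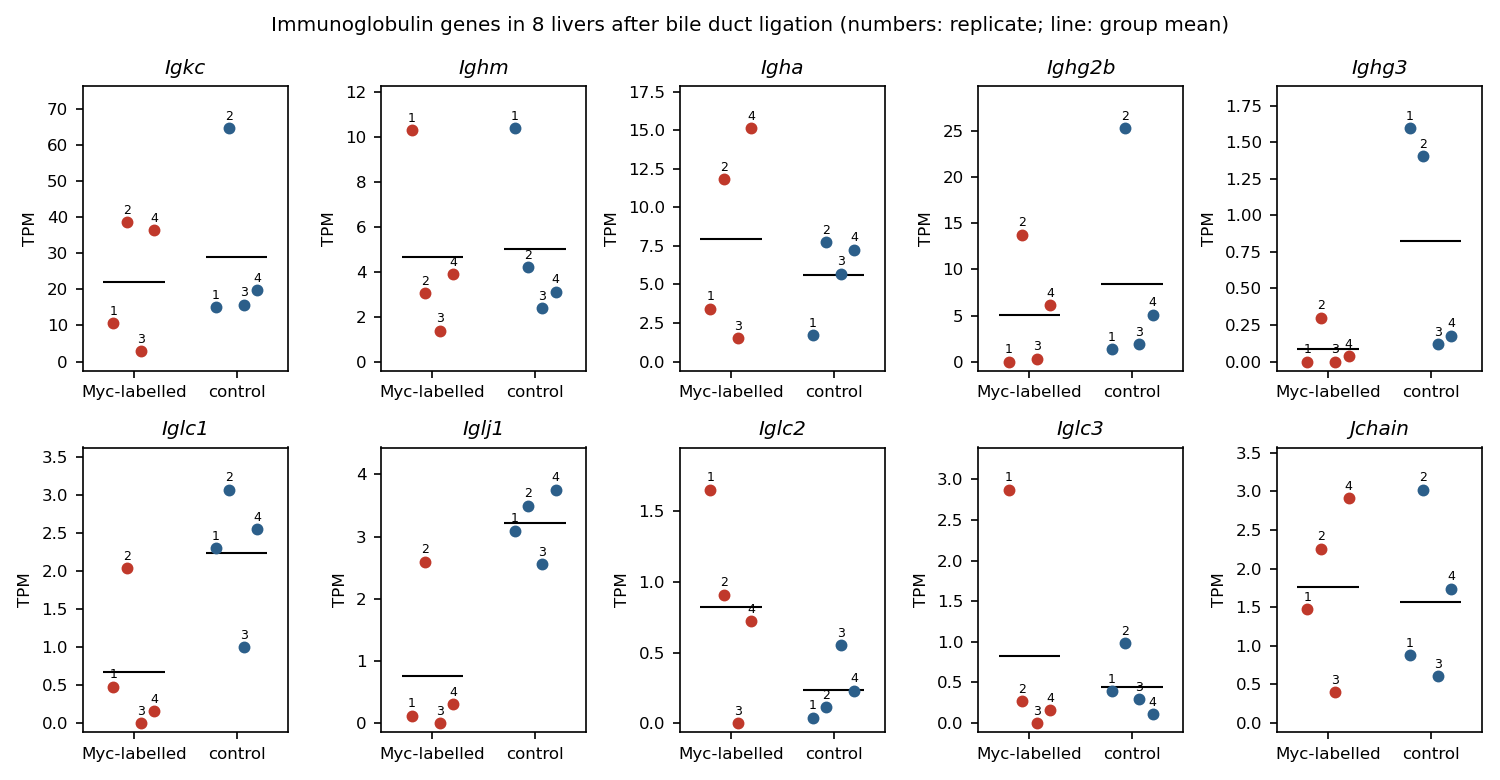
TPM of the 10 genes in each liver (points, numbered by replicate) with the group mean (line), Myc-labelled livers left and control livers right, each panel on its own linear axis. Igkc ranged from 2.84 to 38.7 TPM in Myc-labelled livers and from 15.1 to 64.7 TPM in control livers, and no gene separated the groups.

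The heavy chain classes did not rise and fall as one. Ighm (chromosome 12, 113418558 to 113422730, minus strand), the constant gene of IgM and the first class a B cell makes, stood at 10.3, 3.04, 1.38 and 3.89 TPM in Myc-labelled replicates 1 to 4, against 10.4, 4.19, 2.38 and 3.12 TPM in control replicates 1 to 4. Replicate 1 was the highest of each group, although its Igkc was not high. The log2 difference was -0.16 ± 0.50 (limma adjusted p = 0.9998), and it was 0.18 without Myc-labelled replicate 3 and 0.21 without control replicate 1.

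IgA is the class secreted into bile and gut. Its constant gene Igha (chromosome 12, 113254830 to 113260236, minus strand) stood at 3.43, 11.8, 1.4998 and 15.1 TPM in the Myc-labelled livers, against 1.70, 7.76, 5.70 and 7.26 TPM in the control livers. The highest and the lowest values both belonged to Myc-labelled livers, replicates 4 and 3, which enclosed the whole control range. Igha averaged 7.97 ± 6.55 TPM in the Myc-labelled livers and 5.60 ± 2.75 TPM in the controls (SD, n = 4 each). Its log2 difference was 0.20 ± 0.65 (limma adjusted p = 0.9998), and dropping Myc-labelled replicate 3 gave 0.69, dropping replicate 4 gave -0.21, dropping replicate 2 gave -0.10 and dropping control replicate 1 gave -0.18.

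The IgG subclass gene Ighg2b (chromosome 12, 113302965 to 113307933, minus strand) had the largest spread of the 7 genes tested. It was listed at 0 in Myc-labelled replicate 1 and stood at 13.8, 0.310 and 6.10 TPM in replicates 2 to 4, against 1.32, 25.3, 1.85 and 5.10 TPM in control replicates 1 to 4. As for Igkc, control replicate 2 and Myc-labelled replicate 2 were the highest of their groups. The log2 difference was -0.74 ± 1.14 (limma adjusted p = 0.9998), and it was -0.28 without Myc-labelled replicate 3 and -0.0025 without control replicate 2. The coding part of Ighg2b was 86.3% identical to that of Ighg2c, another IgG subclass gene, so reads may be shared. Ighg2c stood at 0.378, 8.16, 0.238 and 6.09 TPM in the Myc-labelled livers, against 0, 25.5, 4.15 and 2.50 TPM in the controls. The sum of the 2 genes kept the same order at its top, with 21.9 TPM in Myc-labelled replicate 2 and 50.8 TPM in control replicate 2.

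Ighg3 (chromosome 12, 113356224 to 113361232, minus strand), an IgG subclass formed against polysaccharides, had a mean below 1 TPM over the 8 libraries and was left out of the tests. It was listed at 0, 0.301, 0 and 0.0348 TPM in the Myc-labelled livers, against 1.60, 1.41, 0.121 and 0.177 TPM in the controls. Control replicates 1 and 2 alone passed 1 TPM, and the lowest control value lay below the highest Myc-labelled value. In the fit of all genes above 0 its log2 difference was -0.65 ± 0.29 (limma adjusted p = 0.996).

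**Figure D2:**
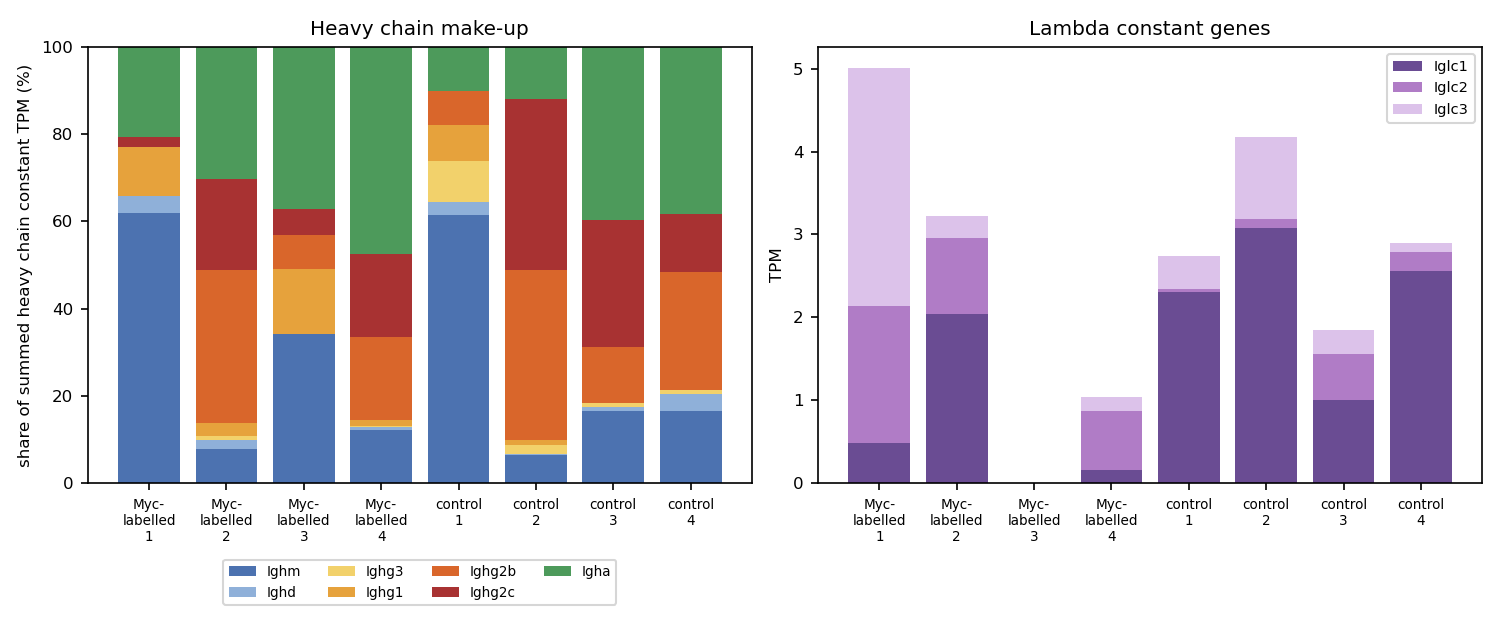
Left, share of each heavy chain constant gene in the summed heavy chain constant TPM of each liver (stacked bars, percent); right, TPM of the 3 lambda constant genes (stacked bars), with Myc-labelled livers 1 to 4 left of control livers 1 to 4. Ighm made up 61.9% in Myc-labelled replicate 1 and 61.4% in control replicate 1, and no lambda constant gene was detected in Myc-labelled replicate 3.

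The class make-up of each liver followed from these values. Ighm led in replicate 1 of each group, with 61.9% of the summed heavy chain constant TPM in the Myc-labelled liver and 61.4% in the control liver. IgG genes together led in Myc-labelled replicate 2 (59.9%) and in control replicate 2 (81.4%). Igha was the largest constant gene in Myc-labelled replicates 3 (37.2%) and 4 (47.4%) and in control replicates 3 (39.8%) and 4 (38.4%), where the IgG genes summed to 42.8% and 41.1%. An Ighm-led liver and an IgG-led liver occurred in each group. Igha exceeded the summed IgG genes in Myc-labelled replicates 3 and 4, where these summed to 28.5% and 39.7%. It also did so in Myc-labelled replicate 1 (20.6% against 13.6%), but in no control liver. Myc-labelled replicate 3, however, rests on a heavy chain sum of 4.03 TPM, against 14.3 to 65.0 TPM in the other libraries. The IgE gene Ighe was listed at 0 in all 8 libraries.

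Lambda light chains were the minor light chain, as is usual in mice, and differed in type. The kappa share of the light chain constant TPM was 68.0%, 92.3%, 100% and 97.2% in Myc-labelled replicates 1 to 4 and 84.7%, 93.9%, 89.5% and 87.2% in control replicates 1 to 4. Iglc1 (chromosome 16, 19061618 to 19062071, minus strand, coding exon with 3′ UTR) stood at 0.481, 2.04, 0 and 0.154 TPM in the Myc-labelled livers, against 2.30, 3.08, 1.0003 and 2.56 TPM in the controls. In 3 of the 4 Myc-labelled livers it was below every control, while Myc-labelled replicate 2 lay within the control range. The log2 difference was -1.05 ± 0.36, with an unadjusted p of 0.0136, and it did not pass over all genes tested (limma adjusted p = 0.9998).

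Iglj1 (chromosome 16, 19063225 to 19063262), the joining segment recombined in front of Iglc1, gave the smallest p of the 10 genes. It stood at 0.117, 2.60, 0 and 0.299 TPM in the Myc-labelled livers, against 3.09, 3.50, 2.56 and 3.76 TPM in the controls. Myc-labelled replicates 1, 3 and 4 were again below every control and replicate 2 just above the lowest control. The log2 difference was -1.47 ± 0.37, with an unadjusted p of 0.00198 (limma adjusted p = 0.9998). Without Myc-labelled replicate 2 it was -1.89 (limma adjusted p = 0.107), and without replicate 3 it was -1.28 (limma adjusted p = 0.896). Over its 38 bases lay 12, 338, 0 and 36 aligned bases in the Myc-labelled livers and 366, 407, 300 and 421 in the controls, which is a mean depth of at most 11.1 reads. Iglj1 was known from earlier results of these data to be among the genes with the smallest p. It and Iglc1 passed the filter of a mean of 1 TPM through their control values, since their Myc-labelled means were 0.753 and 0.670 TPM, so that they had to differ to be tested.

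Iglj1 and Iglc1 moved together over the libraries. Iglj1 is recombined in front of Iglc1, and both reached the filter through their control values, so neither backs the other independently. Of all other genes tested, Iglc1 had the profile closest to Iglj1, with a root mean square difference of 0.33 log2 units between centred values over the 8 libraries, against a median of 0.96 for all genes. The lambda variable segment Iglv1 stood at 1.17, 2.61, 0 and 0.694 TPM in the Myc-labelled livers, against 1.33, 5.53, 1.64 and 0.824 TPM in the controls. Myc-labelled replicates 3 and 4 lay below every control and replicates 1 and 2 within the control range, with means of 1.12 TPM in the Myc-labelled livers and 2.33 TPM in the controls. The noncoding gene 2010309G21Rik, which spans Iglc1, Iglj1 and Iglc3 on the opposite strand, was listed at 0 in all 8 libraries.

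Iglc3 and Iglc2 showed a different library on top. Iglc3 (chromosome 16, 19065230 to 19065681) stood at 2.88, 0.266, 0 and 0.159 TPM in the Myc-labelled livers, against 0.396, 0.982, 0.292 and 0.112 TPM in the controls. Iglc2 (chromosome 16, 19198396 to 19200351) stood at 1.66, 0.911, 0 and 0.720 TPM in the Myc-labelled livers, against 0.0374, 0.113, 0.553 and 0.230 TPM in the controls. Myc-labelled replicate 1 was the highest of the 8 for each gene, where Iglc1 was low. The joining segment Iglj3, which lies in front of Iglc3, was also high there, at 4.83 TPM in Myc-labelled replicate 1 and 0 in the other Myc-labelled livers, against 0.338, 0.653, 0.647 and 0 TPM in the controls. Iglc1 thus made up 9.59% of the lambda constant TPM in Myc-labelled replicate 1, 63.5% in replicate 2 and 14.9% in replicate 4, and 54.2% to 88.2% in the controls. Iglj2, which lies within Iglc2, did not exceed 0.101 TPM in any library. Neither Iglc2 nor Iglc3 reached a mean of 1 TPM. In the fit of all genes above 0 the log2 difference was 0.50 ± 0.28 for Iglc2 and 0.13 ± 0.41 for Iglc3 (limma adjusted p of 0.996 and 0.9999).

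Jchain (chromosome 5, 88519809 to 88527891, minus strand), which is switched on as B cells become plasma cells, was low. Its SD of log2(TPM + 1) was the smallest of the 7 genes tested, but that scale compresses low levels. Its highest and lowest values differed 7.64-fold, against 7.55-fold for Ighm. Jchain stood at 1.48, 2.26, 0.396 and 2.91 TPM in the Myc-labelled livers, against 0.879, 3.02, 0.608 and 1.74 TPM in the controls. The group ranges overlapped almost wholly, with Myc-labelled replicate 3 lowest and control replicate 2 highest. Jchain averaged 1.76 ± 1.08 TPM in Myc-labelled livers and 1.56 ± 1.09 TPM in control livers (SD, n = 4 each). On the log2 scale the groups differed by 0.10 ± 0.37 (95% interval -0.71 to 0.91, limma adjusted p = 0.9998), by 0.40 when Myc-labelled replicate 3 was dropped and by -0.10 when replicate 4 was.

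Over all 10 genes, 7 reached a mean of 1 TPM and were tested, and 0 of the 7 passed an adjusted p of 0.05, where 0% of the 13055 genes tested did. At an unadjusted p under 0.05, 2 of the 7 (Iglc1 and Iglj1) were lower and 0 higher in the Myc-labelled livers, where 0.597% of all genes tested were lower and 1.26% higher. Since these genes reached the filter through their control values, nothing is read from their count. In 0 of the 10 genes did the groups separate, where 0.935% of all genes tested were higher and 0.322% lower in the Myc-labelled livers without overlap. The summed TPM of the 10 genes was 31.0, 75.7, 6.43 and 65.9 in the Myc-labelled livers, against 36.8, 114, 30.8 and 43.9 in the controls. Myc-labelled replicate 3 was the lowest of the 8 libraries, alone or tied at 0, in 9 of the 10 genes, and control replicate 2 the highest in 4.

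**Figure D3:**
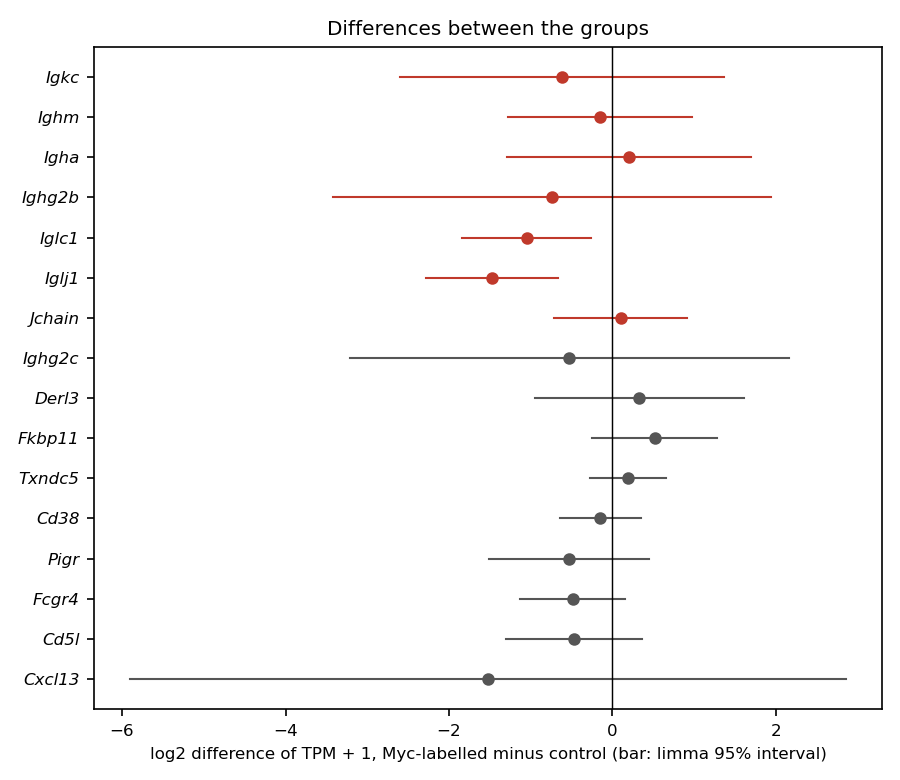
Log2 differences of TPM + 1, Myc-labelled minus control (points), with limma 95% intervals (bars), for the 7 tested immunoglobulin genes (red) and 9 related genes (grey). The intervals of Iglc1 (-1.84 to -0.26) and Iglj1 (-2.28 to -0.67) lay below 0, for 2 genes that reached the filter of 1 TPM through the controls, and none of the genes shown passed the adjusted threshold.

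The spread between livers was the main feature of these genes. The SD of log2(TPM + 1) over the 8 libraries was 1.66 for Ighg2b, 1.26 for Igkc, 0.99 for Igha, 0.97 for Iglj1, 0.80 for Ighm, 0.79 for Iglc1 and 0.58 for Jchain. Its median over the 13055 genes tested was 0.29, and 6 of the 7 genes lay above the 95th percentile of 0.72, Jchain being the exception. Among the 8769 genes with a mean between 1.45 and 25.5 TPM, the range of the 7, the median was also 0.29 and the 95th percentile 0.71. For most of the 7 genes the spread lay within groups: the SD of Igkc was 1.60 within the Myc-labelled livers and 0.96 within the controls, and that of Ighg2b was 1.88 within the Myc-labelled livers and 1.59 within the controls. For Iglj1 it was 0.85 within the Myc-labelled livers and 0.18 within the controls. The share of the sum of squares between the groups was 65.8% for Iglj1 and 50.9% for Iglc1, and 0.874% to 6.81% for the other 5 genes. Since Iglj1 and Iglc1 reached the filter through their control values, nothing is read from this contrast. Without Myc-labelled replicate 3 the SD of Igkc over the libraries was 0.89, and 6 of the 7 genes still lay above the 95th percentile of all genes, then 0.69.

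**Figure D4:**
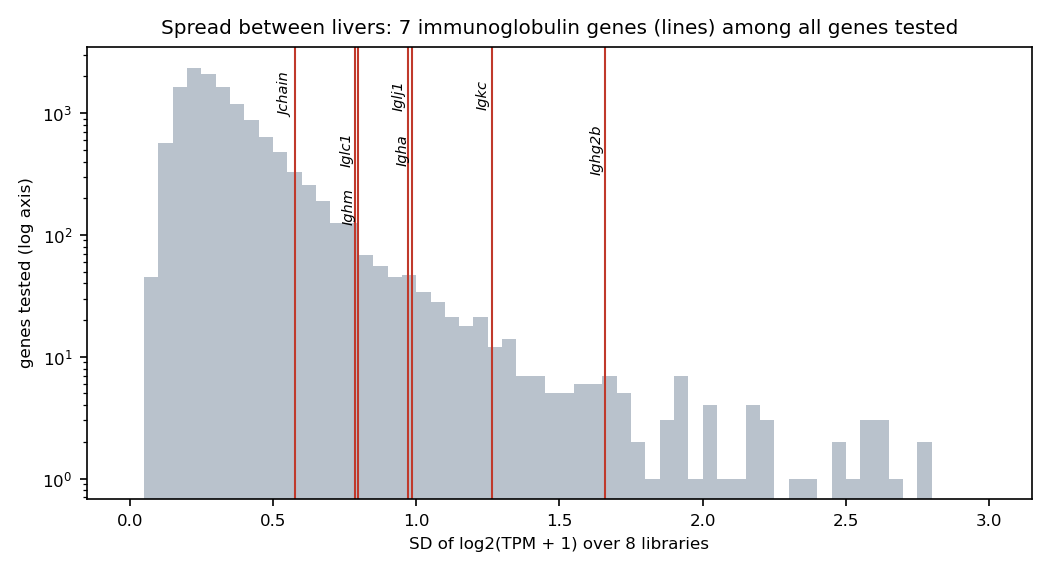
Histogram of the SD of log2(TPM + 1) over the 8 livers for the 13055 genes tested (log count axis), with the 7 tested immunoglobulin genes as red lines. Jchain (0.58) was the lowest of the 7 and Ighg2b (1.66) the highest, against a median of 0.29 for all genes.

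Levels are per length and can be ordered across the genes. Averaged over the 8 libraries, Igkc stood at 25.5 TPM and was above Igha, at 6.79 TPM, in every library. Igha and Ighg2b (6.72 TPM) did not differ beyond their spread, since Igha was higher in 6 of 8 libraries, and Ighg2b was above Ighm (4.84 TPM) in 4 of 8. Iglj1 (1.99 TPM), Jchain (1.66 TPM) and Iglc1 (1.45 TPM) followed, and Iglc3, Iglc2 and Ighg3 closed the order at 0.636, 0.527 and 0.454 TPM. These lower ranks were not stable: Iglc3 was above Iglc2 in 3 of 8 libraries and Jchain above Iglc1 in 4. In the Myc-labelled livers Jchain averaged 1.76 TPM, above Iglj1 at 0.753 TPM, and Iglc3 and Iglc2 averaged 0.825 and 0.822 TPM, above Iglc1 at 0.670 TPM.

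Variable segments are the other end of the same transcripts, since each assembled antibody transcript carries 1 of them. The tables hold 346 such segments, 183 heavy, 160 kappa and 3 lambda. Their summed TPM was 23.5, 53.0, 5.25 and 50.3 in the Myc-labelled livers, against 17.9, 109, 22.9 and 29.0 in the controls. As for Igkc, Myc-labelled replicate 3 was lowest and control replicate 2 highest. The number of segments at 1 TPM or more was 9, 14, 1 and 15 in the Myc-labelled livers and 6, 25, 5 and 8 in the controls. Of the 56 segments that reached this level anywhere, 39 did so in a single library and 0 in all 8, with 5 libraries as the most for any segment, while 205 of the 346 were listed at 0 throughout.

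**Figure D5:**
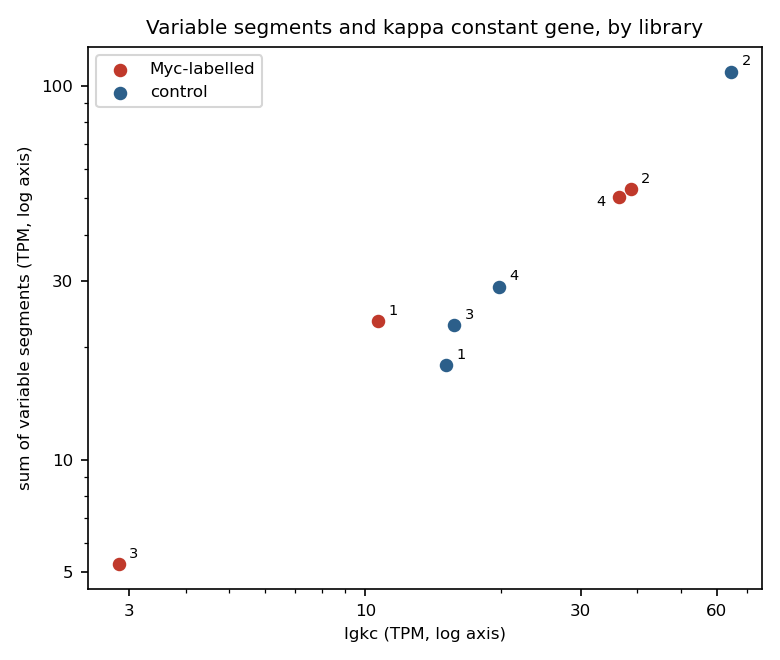
Summed TPM of 346 variable segments against TPM of Igkc, 1 point per liver (numbers are replicates), on log axes. Myc-labelled replicate 3 is lowest on each axis (5.25 and 2.84 TPM) and control replicate 2 highest (109 and 64.7 TPM).

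The leading segment differed from liver to liver. The heavy segment Ighv1-81 stood at 25.5 TPM in control replicate 2, 23.4% of all variable segment TPM in that liver and 46.5% of the heavy segments. It also led in Myc-labelled replicates 2 (5.49 TPM) and 3 (1.79 TPM), was listed at 0 in Myc-labelled replicate 1 and control replicate 1, and stood between 0.138 and 1.14 TPM in the other livers. Its closest relative, Ighv1-85, was 92.9% identical and listed at 0 except for 0.243 TPM in control replicate 3. The kappa segment Igkv1-117 led the kappa segments in control replicate 2 at 10.8 TPM, and it is 97.5% identical to Igkv1-110, which stood at 3.96 TPM there. In Myc-labelled replicate 1 the leading heavy segment was Ighv11-2 at 2.62 TPM, known in mice from B-1 cells that bind phosphatidylcholine. It is 98.9% identical to Ighv11-1, and the presence of B-1 cells was not tested. Elsewhere Ighv11-2 was listed at 0, except for 0.188 TPM in control replicate 4. The kappa segment leading in Myc-labelled replicate 1 was Igkv14-111 at 2.68 TPM. Among the leading segments, identity to the closest relative ranged from 84.2% to 98.9%, so reads may be shared between segments.

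Genes of plasma cell identity and secretion were mostly too low to test or are shared with other liver cells. Of 14 listed, 6 reached a mean of 1 TPM, of which 4 were higher and 2 lower and 0 passed. Tnfrsf17, the receptor by which plasma cells receive survival signals, was listed at 0 in all 8 libraries. Sdc1, the surface marker CD138 of plasma cells and also a proteoglycan of hepatocytes, stood at 148 to 240 TPM in the Myc-labelled livers and 114 to 217 TPM in the controls. Xbp1, a transcription factor of secretory cells in general, stood at 139 to 302 TPM in the Myc-labelled livers and 158 to 331 TPM in the controls. Xbp1, like Igkc, was highest in control replicate 2, whereas Sdc1 was highest in Myc-labelled replicate 3, the library lowest in Igkc.

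Derl3, which helps remove misfolded proteins from the endoplasmic reticulum, stood at 2.71, 1.83, 0.914 and 4.45 TPM in the Myc-labelled livers, against 7.38, 1.57, 0.260 and 0.619 TPM in the controls, with overlapping groups (log2 difference 0.33 ± 0.57, limma adjusted p = 0.9998, and 0.58 without Myc-labelled replicate 3). The folding genes Fkbp11 and Txndc5 had log2 differences of 0.52 ± 0.34 and 0.19 ± 0.21, and Cd38 one of -0.15 ± 0.23 (-0.0010 without Myc-labelled replicate 3), none past the threshold. Mzb1, a chaperone-like protein for antibody heavy chains in marginal zone B and plasma cells, was chosen after its values were seen. It stood at 0.991, 1.23, 1.08 and 1.26 TPM in the Myc-labelled livers, against 0.129, 0.983, 0.121 and 0.0664 TPM in the controls, so that every Myc-labelled value lay above every control value. The mean of Mzb1 was below 1 TPM, so it is not among the genes tested, of which 0.935% were higher without overlap. Since it was picked by its values, nothing is read from its separation. In the fit of all genes above 0 its log2 difference was 0.74 ± 0.21 (limma adjusted p = 0.996). Mzb1 overlaps a neighbouring protein-coding gene on the same strand, from which its reads may not be separable.

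Receptors that carry or bind antibody did not pass the threshold. Of 10 listed, 9 were tested, of which 8 had a lower and 1 a higher mean log2 value in the Myc-labelled livers and 0 were called, where 42.0% of all genes tested were lower. The median log2 difference was -0.18, against 0.04 over all genes tested. Each of the 9 was lowest in Myc-labelled replicate 3, so nothing is read from the count or the median. Pigr stood at 304, 282, 81.0 and 326 TPM in the Myc-labelled livers, against 239, 240, 377 and 467 TPM in the controls. It was lowest in Myc-labelled replicate 3, the library lowest in Igkc and Jchain, and the groups overlapped. The log2 difference was -0.54 ± 0.44 (limma adjusted p = 0.9998), and -0.06 without Myc-labelled replicate 3. Cd5l, a macrophage protein that circulates bound to IgM, ranged from 78.1 to 217 TPM in the Myc-labelled livers and from 137 to 312 TPM in the controls (log2 difference -0.47 ± 0.38, and -0.16 without Myc-labelled replicate 3). The IgG receptor gene Fcgr4 ranged from 10.7 to 23.4 TPM in the Myc-labelled livers and from 13.4 to 32.5 TPM in the controls (log2 difference -0.49 ± 0.29, and -0.30 without Myc-labelled replicate 3). For Fcgr3, another IgG receptor gene, the log2 difference was -0.18, and -0.017 without that library.

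Signals that draw and sustain B cells were led by a chemokine with extreme values in single livers. Of 14 listed, 5 were tested, of which 2 were higher, 3 lower and 0 called. Cxcl13, the chemokine that draws B cells into follicles, stood at 2.61, 1.94, 86.5 and 1.88 TPM in the Myc-labelled livers, against 3.87, 384, 5.34 and 14.3 TPM in the controls. The library with the highest Cxcl13 was also the highest in Igkc, Ighg2b and variable segments, whereas Myc-labelled replicate 3, next in Cxcl13, was lowest in Igkc. Its log2 difference was -1.52 ± 1.82 (limma adjusted p = 0.9998), -0.12 without control replicate 2 and -2.72 without Myc-labelled replicate 3. Cxcl12, which holds plasma cells in bone marrow, was steady at 74.2 to 141 TPM in the Myc-labelled livers and 95.5 to 125 TPM in the controls.

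Red cell genes were listed as a possible mark of blood in the tissue, the amount of which was not measured. Haemoglobin and Alas2 transcripts summed to 735, 1411, 960 and 1593 TPM in the Myc-labelled livers, against 1773, 726, 560 and 354 TPM in the controls. The control liver highest in red cell transcripts, replicate 1, had the lowest Igkc of its group, and control replicate 2, highest in Igkc, was second in its group. Their part in the spread of antibody transcripts was not tested.

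The profile of Igkc over the 8 libraries was not closest to an immunoglobulin gene. By the root mean square difference of centred log2(TPM + 1) values, the closest were the mitochondrial tRNA genes mt-Tw (0.69) and mt-Tk (0.70), the cytochrome gene Cyp2c29 (0.71), the paired receptor gene Pilrb1 (0.71) and the trefoil factor gene Tff3 (0.72), against a median of 1.1798 for all genes. Igha, at 0.70, and Iglv1 and Ighg2b, each at 0.73, stood at a like distance, while Iglc1 (0.94) and Iglj1 (1.0029) lay farther off and Ighm (1.29) beyond the median. Jchain, with its smaller spread, was closest to Gm14548 (0.20), Slc2a6 (0.22) and the B cell and myeloid signalling genes Syk (0.23) and Dok3 (0.23), against a median of 0.56. The immunoglobulin genes lay beyond that median, from Igha (0.58) and Iglv1 (0.63) to Igkc (0.76), Ighg2b (1.18194) and Ighg2c (1.20). This distance is not scaled for spread, so genes of much larger spread lie far from Jchain even where they rise and fall with it.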

How the data were processed

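RNA of 8 livers was measured. The submitters' processing notes name HISAT2, StringTie and the build mm10, without versions or strand. The authors deposited TPM and FPKM values, and a coverage signal stands beside them per the file headers. Counts of reads were not used. Gene IDs that occurred in several rows (10 to 15 extra rows a library) were added up. Gene IDs matched GENCODE M21 for 98.3%, all with identical coordinates.

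The 13055 genes whose mean over the libraries reached 1 TPM were compared on log2(TPM + 1) by limma 3.58.1 in R 4.3.3 (trend and robust options, 2 sides, Benjamini-Hochberg). Python 3.11.15 with pandas 2.3.3 and numpy 2.4.6 did the rest. The fit was tested on simulated data, with changes placed only in genes at levels above those of the tested immunoglobulin genes other than Igkc. It therefore does not bear on how well changes in those are found. The genes and the 10 lists (89 genes) were chosen with earlier results of these data known. Named are all 10 genes, up to 4 per list by smallest p, leading variable segments and the 5 closest profiles to Igkc and Jchain; other names were chosen after their values were seen, and a few items are not reported here. Alternatives covered pseudocount, filter, scaling, FPKM, variance model, weights, block and left-out libraries.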

Additional observations from a re-analysis of the deposited data

Results flagged for a closer look

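In 30 groups of 4 livers the gap of the highest or lowest value to its neighbour, as a share of the group's range of log2(TPM + 1), was compared with Dixon's 95% critical value for 4 samples, which chance passes in about 1 in 20 groups. It was passed 4 times, each time among the Myc-labelled livers. Replicate 3 was the lowest there for Pigr (81.0 TPM, 0.895 of the range) and Myc (25.6 TPM, 0.863), and the highest for Cxcl13 (86.5 TPM, 0.934). Replicate 2 was the highest for Ighg3 (0.301 TPM, 0.870), at a level below 1 TPM.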

How the results depend on the processing

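None of the tested immunoglobulin or listed genes passed the adjusted threshold in any of the 19 alternatives that tested it, and over all genes the count was 0 except for 1 with array weights. With array weights the log2 difference changed sign for Igkc (0.24), Ighg2b (0.47), Ighg2c (0.19), Myc (0.23) and Txndc5 (-0.0016). Leaving out each library gave -1.05 to 0.071 for Igkc, -0.57 to 0.21 for Ighm, -0.21 to 0.69 for Igha, -0.10 to 0.40 for Jchain, -1.27 to 0.31 for Ighg2c, -0.91 to 0.43 for Myc, -0.30 to 0.0053 for Cxcl12 and -0.015 to 0.90 for Derl3, each with a change of sign; the cause was not tested. Iglj1 stayed negative, at -1.89 to -1.28 over left-out libraries, as did Iglc1, at -1.39 to -0.85. With array weights they were -0.80 and -0.44, and with a pseudocount of 5 -0.54 and -0.36. Since both reached the filter through their control values, nothing is read from the kept sign. The median SD of the 7 tested genes was 0.97, and 0.47 with a pseudocount of 5, where the median of all genes was 0.20; without Myc-labelled replicate 3, an alternative chosen after seeing the data, it was 0.87. Same-numbered livers did not deviate together over all genes tested (correlations -0.06 to 0.13), so the numbers are not taken as pairs. A replicate block called 0 genes. It narrowed the SE from 1.14 to 0.27 for Ighg2b, from 0.50 to 0.22 for Ighm and from 0.85 to 0.46 for Igkc. For Myc it widened the SE from 0.95 to 1.23. Whether the replicate numbers stand for something that these livers share was not tested. A filter of 5 TPM gave no value for the genes below it. Depth limits the genes below 1 TPM, and intervals between groups of 4 are wide.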

Other observations

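Of 5 listed enzymes that act on antibody genes, Ung, a general DNA repair enzyme, alone reached a mean of 1 TPM and was tested, at 4.37 to 7.36 TPM in the Myc-labelled livers and 2.46 to 5.95 TPM in the controls. Rag2, a subunit of the recombinase, was listed at 0 in all 8 libraries, and Rag1 in all but control replicate 3 (0.0073 TPM). Dntt, which adds bases at the joins during recombination in developing lymphocytes, was nevertheless listed at 1.09, 0.471, 0.532 and 0.964 TPM in the Myc-labelled livers and at 0.161, 0.736, 0.328 and 2.84 TPM in the controls.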
